A study of Caenorhabditis elegans with 2 samples.

Results

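The X chromosome of the nematode Caenorhabditis elegans carries 276 of the 612 nuclear genes annotated with the biotype tRNA, or 45.1%, and these 276 genes are described here. They comprise every gene of that biotype on X in the annotation, and no peak value enters the rule. The other 336 nuclear tRNA genes lie on the autosomes, and the 22 mitochondrial ones were not counted. The data are peaks from chromatin immunoprecipitation and sequencing (ChIP-seq) of Y53F4B.3, annotated as pole-4. The gene carried TY1::EGFP::3xFLAG at its own locus by CRISPR editing in strain RW12270, and antibody to GFP was used. Whole young adults of 64 h, grown from starved first-stage larvae, gave 1 group with 2 biological replicates, and both carried the tag. An untagged strain or control library was not analysed here. Whole worms mix all tissues, so a peak cannot be assigned to a cell type.

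Transfer RNAs carry amino acids to the ribosome. RNA polymerase III transcribes their genes from a promoter that lies inside the gene. The factor TFIIIC reads its A box and its B box, TFIIIB is then placed just upstream of the start, and a run of T ends the transcript. All tRNAs for 1 amino acid form an isotype, and an anticodon of 3 bases reads the codon. Worm tRNA genes occur in many identical copies, alone, in small groups or inside introns of protein-coding genes. In humans, POLE4 is a histone-fold protein that belongs to DNA polymerase epsilon, an enzyme that copies DNA.

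Each gene was scored by peak summits within 500 bp of it. A candidate is any peak in a ranked list, and a listed peak is one that the authors kept in the thresholded list, all of which had an irreproducible discovery rate (IDR) of 0.01 or less. The larger set drew on both replicates and listed 465 of 9477 candidates, a conservative set listed 437 of 12529, replicate 1 listed 287 of 18181 and replicate 2 listed 248 of 27101. The signal of a peak is the score given by the authors' peak caller, and signals were compared within 1 list only. Read depth is unknown because the files are peak lists. Intervals are exact binomial (Clopper-Pearson) 95% intervals, which cover counting error only. They are also too narrow, since neighbouring genes share peaks. All shares are descriptions, and no test was made between groups of genes.

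Sequences that recur in the results are shown first, read from the RefSeq copy of assembly WBcel235 (ce11) along each gene's strand. Capitals mark the core of the A box, GCNNAGNNG, and of the B box, GTTCGANNC, where these letters occur. The first pair lies within 500 bp of one of the strongest summits, in an intron of him-4, and differs by 7 edits over 72 bases. The peak covers F15G9.t1 and ends before F15G9.t2.
F15G9.t1 (Ala): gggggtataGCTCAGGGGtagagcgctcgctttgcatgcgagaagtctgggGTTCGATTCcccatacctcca
F15G9.t2 (Ala): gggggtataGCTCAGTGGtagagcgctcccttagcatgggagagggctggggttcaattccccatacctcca
The next pair is shown because one sequence is carried by 10 genes, all on X, of which 5 were listed in the larger set, while the other is carried by 9 X genes of which none was listed there.
C14F11.t1 (Arg): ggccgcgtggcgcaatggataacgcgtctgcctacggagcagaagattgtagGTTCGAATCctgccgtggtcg
R04A9.t1 (Gln): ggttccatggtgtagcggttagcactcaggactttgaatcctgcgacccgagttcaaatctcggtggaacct
The last pair has a leucine gene listed in both replicates and the leucine sequence whose 9 copies all lie on X.
C40H5.t1 (Leu): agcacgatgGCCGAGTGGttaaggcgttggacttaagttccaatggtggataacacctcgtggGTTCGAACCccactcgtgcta
C04E7.t1 (Leu): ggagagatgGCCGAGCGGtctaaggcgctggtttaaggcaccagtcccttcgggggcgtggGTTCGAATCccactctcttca

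Of the X tRNA genes a minority had a listed summit, and most listed peaks of the chromosome lay at one of them. In the larger set 70 of the 276 genes (25.4%, interval 20.3 to 30.9%) had a listed summit within 500 bp, beside 21.7% of all nuclear tRNA genes. A further 144 genes had a candidate that was not listed, and 62 had no candidate. Among the 336 autosomal genes these counts were 172 and 101. On the autosomes 63 of 336 genes (18.8%, 14.7 to 23.3%) had a listed summit. The intervals overlap and the difference was not tested. The X share was the higher in all 12 settings compared, the main one included. These settings score the same genes and experiment again, so their agreement is not independent support. Of the 69 listed peaks on X, 56 had their summit near a tRNA gene (81.2%, 69.9 to 89.6%). On the autosomes this was 56 of 396 listed peaks (14.1%, 10.9 to 18%). Both shares hold for listed peaks only. A further 42 X and 107 autosomal peaks met the IDR limit but were left out of the authors' list, 0 of them near a tRNA gene. Both shares would be lower with these peaks added, and they were not recomputed. The 13 other listed X peaks lay at least 3603 bp from a tRNA gene, and the strongest of them had a signal of 340, above that of any peak near a tRNA gene on X.

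Candidates near X tRNA genes were listed more often than other X candidates. Of 197 candidates near an X tRNA gene 28.4% were listed (22.2 to 35.3%), against 13 of 1009 other X candidates (1.29%, 0.688 to 2.19%), and 4.91% of all candidates in the list. On the autosomes 24.2% of 231 candidates near tRNA genes (18.9 to 30.3%) and 4.23% of 8040 others (3.80 to 4.69%) were listed. The intervals of the near shares on X and the autosomes overlap, and those of the other candidates do not. The 197 near candidates had a median signal of 68.5 and a median rank of 948, and the 1009 others had a median signal of 41.3 and a median rank of 5177. The highest signals were not at tRNA genes, since an X candidate of signal 5424 headed the ranking and was not listed. The authors' list omits 42 X and 107 autosomal peaks that meet the IDR limit, and 0 of them lay near a tRNA gene. They count as not listed among the other candidates, beside 13 listed on X and 340 on the autosomes. The contrast in other candidates therefore depends on that omission, and it was not recomputed with these peaks added.

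**Figure D1:**
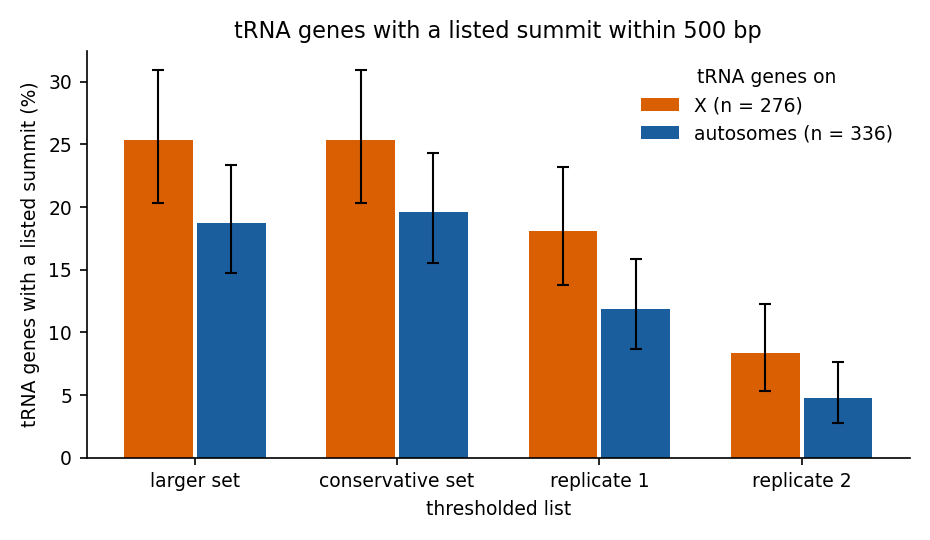
Percent of tRNA genes with a listed summit within 500 bp (vertical axis) in 4 thresholded lists, for 276 genes on X and 336 on the autosomes; bars are shares and whiskers exact binomial 95% intervals. The X bar is the higher in each list, from 25.4% against 18.8% in the larger set to 8.33% against 4.76% in replicate 2, with overlapping intervals.

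The replicates differed in how many X tRNA genes they listed. Replicate 1 listed 50 genes (18.1%, 13.8 to 23.2%), beside 14.7% of all nuclear tRNA genes, and replicate 2 listed 23 (8.33%, 5.36 to 12.2%), beside 6.37%. In replicate 1, 37 of the 43 listed X peaks lay near a tRNA gene, and in replicate 2, 18 of 28. The list of replicate 1 left out 14 X peaks that met the IDR limit, and that of replicate 2 left out 43. Of these peaks 0 lay near a tRNA gene, and the shares were not recomputed with them. Of candidates near X tRNA genes, 19.5% were listed in replicate 1 and 8.49% in replicate 2, where 1.58% and 0.915% of all candidates were listed. Candidates themselves were as frequent in replicate 2, with 233 genes (84.4%) against 222 (80.4%). Of the 336 autosomal genes, 271 (80.7%) had a candidate in replicate 2 and 268 (79.8%) in replicate 1. The replicates therefore differed more in listed genes than in genes with a candidate.

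A candidate was found in both replicates for 202 genes. Both replicates listed 13 genes, which was 26% of the genes of replicate 1 (14.6 to 40.3%) and 56.5% of those of replicate 2 (34.5 to 76.8%). All 13 were in the larger set as well. The larger set held 32 further genes listed in replicate 1 only, 5 in replicate 2 only and 20 in neither, while each replicate listed 5 genes that the larger set lacked. The conservative set also held 70 genes, 62 of them shared with the larger set. Any of the 4 lists named 87 genes. Over the 202 genes, the log2 signals of the replicates had a Pearson correlation of 0.46 and a Spearman correlation of 0.40, which describes genes that share peaks and are not independent.

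**Figure D2:**
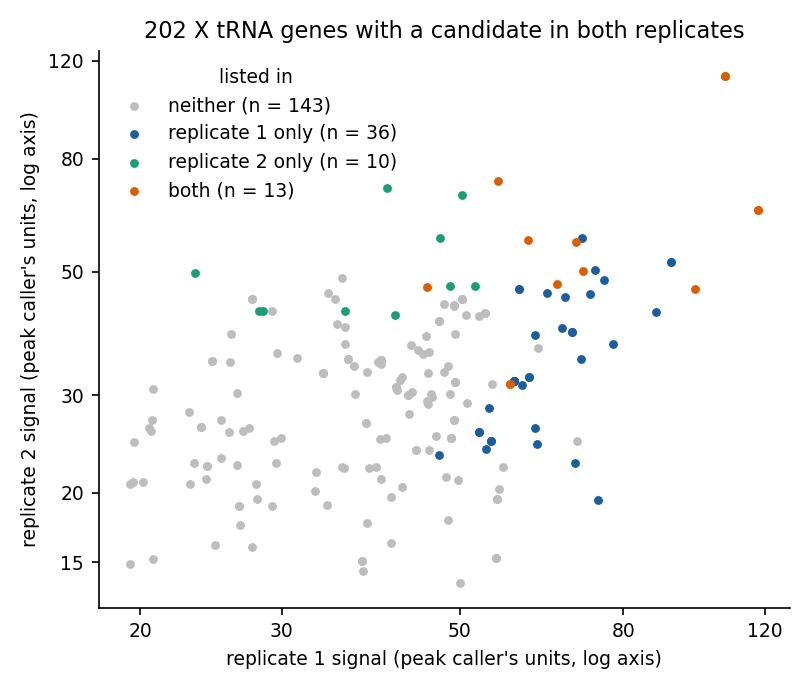
Signal of the strongest candidate in replicate 1 (horizontal) and replicate 2 (vertical), both on log axes in the peak caller's own units, for the 202 X tRNA genes with a candidate in both; colours give the replicate in which the gene was listed. Of the 202, 13 were listed in both, 36 in replicate 1 only, 10 in replicate 2 only and 143 in neither. The 13 lie toward the upper right as a group, but some are near a median of the 202 genes. F35A5.t1 has 45.5 in replicate 1 (median 44.3), and C28G1.t2 and C28G1.t3 have 31.4 in replicate 2 (median 31.3).

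Some of the strongest peaks at X tRNA genes counted for neighbouring genes as well. M02F4.t1 (glycine) and M02F4.t2 (glutamate) point away from each other, and a summit 36 bp upstream of the first and 81 bp upstream of the second had a signal of 219 in the larger set, 107 in replicate 1 and 113 in replicate 2. The 2 alanine genes in the him-4 intron, F15G9.t1 (X:9743589-9743660) and F15G9.t2 (X:9743747-9743818), shared a peak with signals of 187, 118 and 64.7 in the same order. Its summit lay 13 bp inside F15G9.t1 and 145 bp upstream of F15G9.t2. Both pairs were listed in all 4 lists. him-4 encodes hemicentin, a protein of the extracellular matrix. The bases under the him-4 peak, X:9743472-9743731 on the plus strand, are given with F15G9.t1 in capitals.
peak at F15G9.t1: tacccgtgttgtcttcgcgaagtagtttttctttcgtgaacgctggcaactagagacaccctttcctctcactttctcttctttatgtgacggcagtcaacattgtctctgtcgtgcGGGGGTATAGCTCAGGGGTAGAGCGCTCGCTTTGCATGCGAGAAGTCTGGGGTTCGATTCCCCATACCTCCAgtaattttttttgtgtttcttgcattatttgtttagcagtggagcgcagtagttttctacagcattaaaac

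Other genes listed in both replicates were mostly intergenic and covered several isotypes. C40H5.t1 (leucine, X:11757831-11757914, minus strand) had signals of 129.3 in the larger set, 69.8 in replicate 1 and 56.6 in replicate 2. W03G11.t1 (lysine) had 143, 98.4 and 46.5, so it stood above the median of 66.1 of the listed summits near X tRNA genes in replicate 1 and below that of 49.97 in replicate 2. F25F6.t1 (glutamate), in an intron of mltn-13 on the opposite strand, went the other way with 128, 55.8 and 72.9. F52E10.t5 (glutamate), C03A3.t1 (arginine), the valine genes F35A5.t1 and R04D3.t2 and the divergent glycine pair C28G1.t2 and C28G1.t3 complete the 13. The glycine pair had the lowest replicate 2 signal of the 13, 31.4, for a summit between the genes.

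Some genes with a strong peak in the larger set were listed in 1 replicate only. The proline genes C16B8.t2 and C16B8.t3, which differ by 1 edit and have no identical copy, shared a peak with signals of 148 in the larger set, 91.8 in replicate 1 and 52.1 in replicate 2, and replicate 2 did not list it. C28G1.t1 (glutamate), the only X tRNA gene inside an exon, that of C28G1.2, had 133, 71.1 and 57.6. F09B9.t1 (arginine) had 130, 87.9 and 42.3, and F17H10.t1 (glycine), in an intron of the sorting nexin gene snx-17, had 127, 73.8 and 50.5. Each was listed in replicate 1 alone. The replicate 2 signals of all these genes exceeded those of some genes that replicate 2 listed. A signal alone therefore does not give the call.

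Genes just short of the threshold were close to the listed ones. R11.t2 and R11.t3 (tyrosine) shared a candidate with an IDR of 0.0106 and a signal of 80.8, and T25B6.t2 (threonine) had an IDR of 0.0107 and a signal of 73.1. K09C8.t1 (glycine), the listed gene with the lowest best signal, had 68.2. The R11 genes were listed in replicate 1, as were C06G1.t3 and C06G1.t4 (aspartate), which also share a peak, and F23A7.t1 (lysine) in replicate 2, all without a listed summit in the larger set. At the other end, B0395.t1 (serine), K11E4.t3 (lysine) and T27B1.t1 (phenylalanine) had candidates of signal 28.6, 24.1 and 40.7, each with an IDR of 0.833. They are the last by position of 9 unlisted genes tied at that highest IDR.

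Summits lay on the tRNA genes themselves. Of the 56 listed X summits 42 were inside the nearest gene (75%, 61.6 to 85.6%), 11 upstream and 3 downstream, and 55 were within 100 bp of it. Measured along the gene's strand from its 5′ end, the median position was 22.5 bp, with quartiles of 8.5 and 42.5 bp, in genes with a median length of 72 bp. Of the 141 candidates that were not listed 84 were inside the gene (59.6%, 51.0 to 67.7%), and their median was 20 bp with wider quartiles of 2 and 55 bp. In replicate 1 the median over 37 listed summits was 22 bp and in replicate 2 over 18 it was 18 bp. Autosomal listed summits had a median of 25 bp. Of the 11 upstream summits 4 lay between divergent tRNA genes, at M02F4.t1, C28G1.t2, C53C7.t2 and T10B10.t2, and the 7 others were 4 to 31 bp upstream of a gene.

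**Figure D3:**
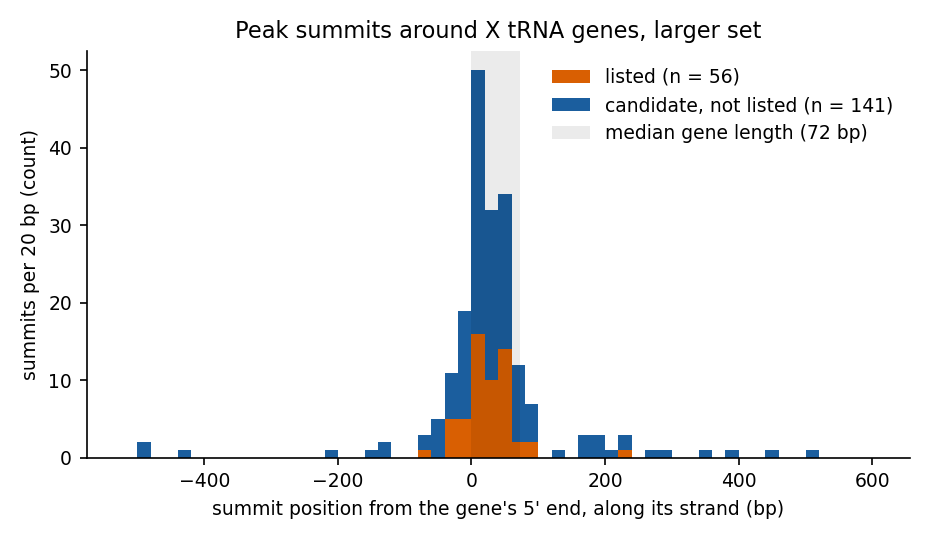
Number of peak summits of the larger set per 20 bp (vertical) by position from the 5′ end of the nearest X tRNA gene along its strand (horizontal, bp), 56 listed summits stacked with 141 candidates that were not listed. Both heap up within the shaded median gene length of 72 bp, where 42 listed and 84 other summits lie inside their gene.

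The window was wider than most distances, so genes could be counted through a neighbour's peak. The 70 listed genes shared 56 summits. Of these, 43 summits had 1 tRNA gene within the window, 11 had 2, 1 had 3 and 1 had 5. The summit with 5 lay inside K01A12.t4 (cysteine), 1 of 5 tRNA genes in an intron of K01A12.3, and the one with 3 lay in ZK154.t2 (asparagine) in deg-1, a channel subunit gene of the degenerin family. When each summit counted for its nearest tRNA gene only, 55 X genes were listed (19.9%). The genes nearest to the limit inside it were R04E5.t5, K11E4.t5 and ZK154.t1 at 436, 443 and 474 bp, and outside it F59C12.t1, C16B8.t1 and F02D10.t3 at 525, 526 and 701 bp. The farthest listed summit from its nearest gene was 152 bp from F43C9.t1 and had a signal of 2.86, beside a second listed summit of that gene with 81.3.

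Isotypes varied in how many of their X genes were listed, on small numbers. Leucine had 9 of 17 (52.9%, 27.8 to 77.0%), glycine 9 of 20 (45.0%, 23.1 to 68.5%), asparagine 4 of 6, cysteine 4 of 7 and histidine 4 of 9. The asparagine and cysteine counts include 3 genes each at the deg-1 and K01A12.3 peaks. The other listed cysteine gene, R04E5.t5, was counted through a summit 436 bp away, inside the glycine gene R04E5.t4. Pairs at a shared summit also enter the counts of leucine (C05C9.t1 and C05C9.t2) and histidine (F28H6.t2 and F28H6.t7). Glycine has the pairs C28G1.t2 and C28G1.t3, and T10B10.t1 and T10B10.t2. Arginine had 6 of 27, glutamate 6 of 23, lysine 6 of 18, proline 5 of 20, serine 4 of 18, threonine 4 of 14, alanine 3 of 13 and valine 3 of 14. Aspartate, tyrosine and phenylalanine had 1 each, of 12, 8 and 6. The strongest listed genes among these included F38G1.t2 (aspartate) in the growth factor gene egl-17 with a signal of 117, F41D9.t3 (asparagine) with 119, T28B4.t1 (phenylalanine) with 114, E03E2.t1 (serine) in the monoamine transporter gene cat-1 with 115 and C02B4.t2 (tyrosine) in nhr-17 with 103. R01H5.t1 (threonine) also had 103, F28H6.t2 (histidine) 97.0 and K01A12.t5 (cysteine) 92.3. K01A12.t5 was the first by position of the cysteine genes that share its peak. The summit lay 192 bp upstream of it, inside K01A12.t4.

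No X gene was listed in the larger set for glutamine (0 of 15, upper limit 21.8%), isoleucine (0 of 13, 24.7%), methionine (0 of 8, 36.9%) or tryptophan (0 of 5, 52.2%). Of these 41 genes 29 had a candidate. The other lists held a few of them, chosen here after their values were seen. The conservative set listed the glutamine genes H35N09.t1 and H35N09.t2, which share a peak of signal 71.96, replicate 1 listed C02B4.t1 (isoleucine) and replicate 2 F22F1.t6 (methionine). The last was counted through a neighbour's peak, since that summit lay inside the aspartate gene F22F1.t5 and 358 bp upstream of F22F1.t6. On the autosomes each of the 4 isotypes had at least 1 listed gene. Across the 20 isotypes with 5 or more genes on both X and the autosomes, the shares listed had a Pearson correlation of -0.035. The Spearman correlation was -0.020. Isotypes have few genes each, so values this near 0 do not show whether the underlying order differs between X and the autosomes.

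**Figure D4:**
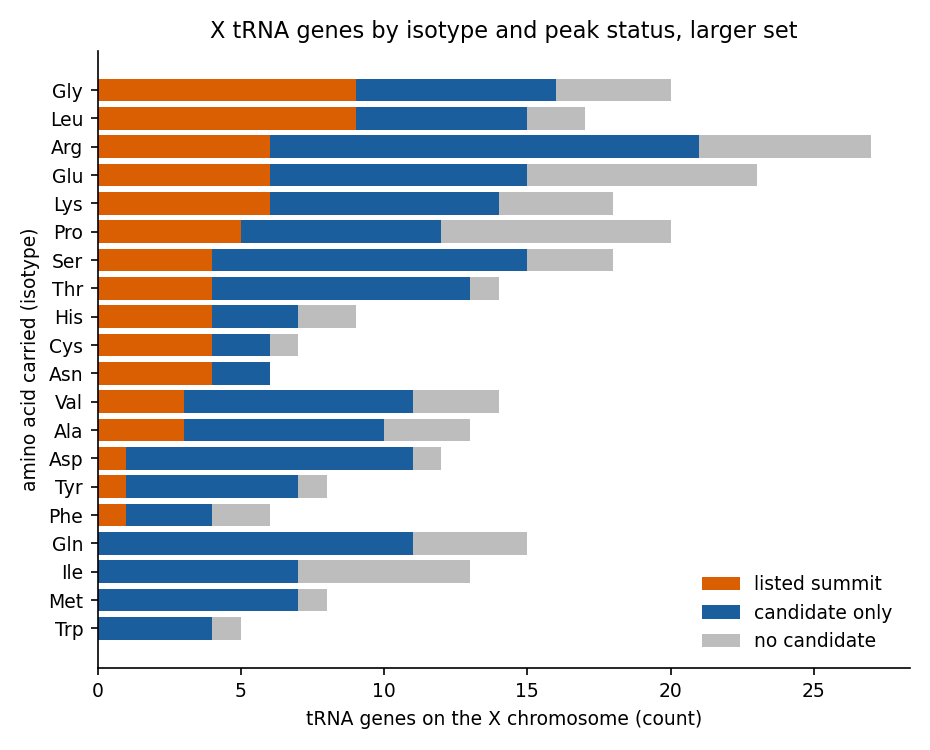
Number of X tRNA genes (horizontal) in each of 20 isotypes (vertical), split into genes with a listed summit, with a candidate only and with no candidate in the larger set. Glycine and leucine have 9 listed genes each, and glutamine, isoleucine, methionine and tryptophan have none.

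In some isotypes the share listed varied between anticodons, and in others it was similar. All 6 listed arginine genes had anticodon ACG, of 13 such genes, each with a candidate. Of these 6, K01A12.t1 and K01A12.t3 were counted through the shared K01A12.3 peak. None of the 6 with TCG or the 4 with TCT was listed. Of glutamate genes 4 of 8 with TTC and 2 of 15 with CTC were listed. Valine had 0 of 10 with AAC and both genes with TAC. Glycine had similar shares, 7 of 16 with TCC and 2 of 4 with GCC. So had threonine, with 2 of 7 for AGT, 1 of 3 for CGT and 1 of 4 for TGT. Each anticodon has few genes, and no difference between anticodons was tested.

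Genes with the same sequence did not share the same status. The 276 genes have 106 different sequences, 219 genes have at least 1 identical copy in the nuclear genome, and 57 have none. In 29 sequences carried by 3 or more X genes, 195 genes in all, 21 had some but not all X copies listed, 8 had none and 0 had all. The 10 copies of the arginine sequence shown above (C14F11.t1) all had candidates, with signals from 64.7 to 130, and 5 were listed. The leucine sequence of C04E7.t1 had 3 of 9 listed, the tyrosine sequence of F56F10.t1 1 of 6, and the proline sequence of C16B8.t1 2 of 13. The glutamine sequence of R04A9.t1 had 0 of 9, with 6 candidates from 36.1 to 73.8, and the valine sequence of T01B4.t1 0 of 4. Copy number showed no steady course, with 12 of 57 single-copy genes listed (21.1%), 9 of 31 with 2 to 5 copies (29.0%), 14 of 53 with 6 to 10 (26.4%), 25 of 91 with 11 to 20 (27.5%) and 10 of 44 with more than 20 (22.7%).

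**Figure D5:**
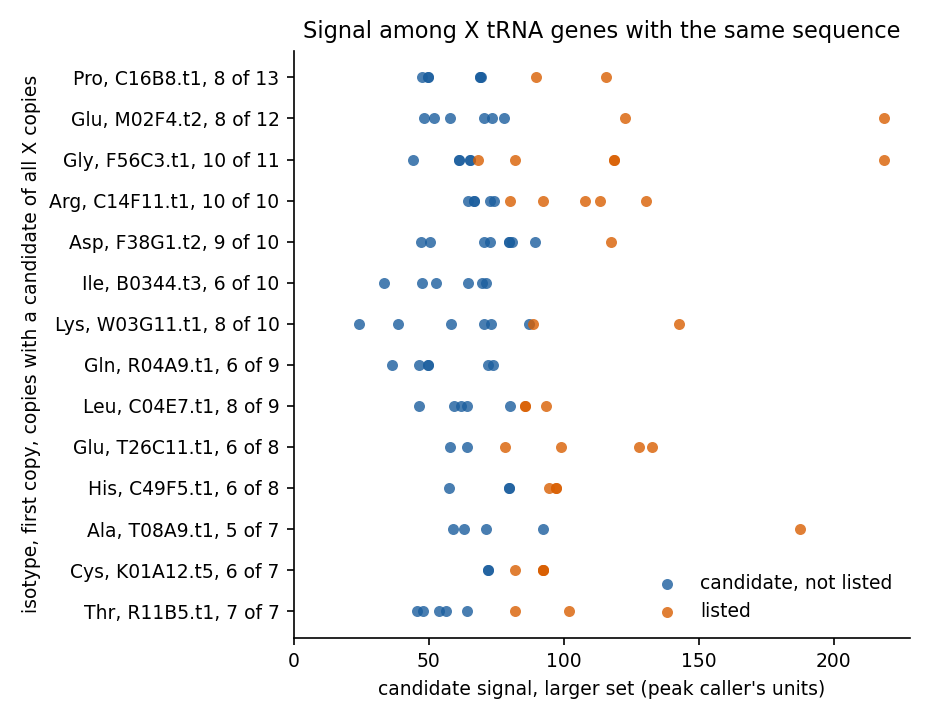
Candidate signal in the larger set (horizontal, peak caller's units) of X tRNA genes that share one sequence, for the 14 sequences with 7 or more X copies; each line gives the isotype, the first copy and how many copies had a candidate, and colours show listed genes. The 10 arginine copies span 64.7 to 130, while none of the isoleucine and glutamine copies is listed.

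Identical copies can be told apart by sequencing only through their flanks. Of 227 X genes whose flanking 24-mers within 100 bp were all unique in the genome 63 were listed (27.8%, 22 to 34.1%), and of the 49 others 7 (14.3%, 5.94 to 27.2%). Among autosomal genes the same shares were 20.6% and 12.2%. How much this contributed to the calls was not tested.

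The place of a gene made no steady difference. Of the 180 intergenic X genes 41 were listed (22.8%, 16.9 to 29.6%), of 50 in an intron of a gene on the same strand 13 (26%, 14.6 to 40.3%), and of 45 in an intron on the opposite strand 15 (33.3%, 20 to 49.0%). Introns together had 28 of 95 (29.5%, 20.6 to 39.7%), but the intronic share was above the intergenic one in only 5 of 12 settings. With each summit given to its nearest gene the shares were 20% and 19.4%. Among genes with no other tRNA gene within 1000 bp they were 20.3% and 28.4%, and in replicate 2 they were 5.26% and 10%. The 95 intronic genes lie in 67 host genes, of which 18 had a listed one. In the junction gene ajm-1 0 of 5 tRNA genes, all glutamine, were listed, and in the hedgehog-related gene wrt-9 0 of 3, all isoleucine.

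Along the chromosome, the outermost stretches held the lowest shares. In steps of 3 Mb from the left end, 4 of 24 genes, 11 of 27, 18 of 69, 12 of 43, 19 of 64 and 6 of 49 were listed. The highest share was 40.7% (22.4 to 61.2%) and the lowest 12.2% (4.63 to 24.8%), in the last step. These intervals overlap. Genes with another tRNA gene within 500 bp had a listed share of 26.9% (29 of 108), those with the nearest farther off but within 1000 bp 18.5% (5 of 27, 6.3 to 38.1%), and those with none within 1000 bp 25.5% (36 of 141).

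The promoter letters were common in listed and unlisted genes alike. The B box core was found in 57 of 70 listed X genes (81.4%, 70.3 to 89.7%) and in 143 of 206 others (69.4%, 62.6 to 75.6%), with the same counts when both strands were searched. It was in 72.1% of all nuclear tRNA genes and in 0.336% of 596 windows of the same lengths taken 1000 bp upstream. Seen from the gene, 28.5% of X genes with the core (22.4 to 35.3%) and 17.1% of those without (9.43 to 27.5%) were listed, with overlapping intervals. On the autosomes the shares were 18.7% and 18.9%. The A box core was in 42.9% of listed and 41.7% of other X genes, in 45.3% of all nuclear tRNA genes and in 2.68% of the windows. The 2 cores do not overlap in the sequences shown, and a match is only a match of letters. Only these exact letters were searched, so a gene without them need not lack the box.

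At the far end, 21 X tRNA genes had no candidate in any of the 4 ranked lists, while 189 had one in all 4. Of the 21, 19 were intergenic and 2 intronic, beside 180 and 95 of all 276 X genes. The 21 included 3 genes each of arginine, glutamate and isoleucine, which have 27, 23 and 13 X genes. The first of them along the chromosome were B0344.t1 (isoleucine) in wrt-9, C36C9.t2 (arginine), Y75D11A.t2 (arginine), F15A8.t2 (glutamate) and F08F1.t3 (leucine). F15A8.t2 has the same sequence as M02F4.t2, one of the genes at the strongest peak. All flanking 24-mers were unique for 13 of the 21, beside 227 of all 276 X genes.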

How the data were processed

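The authors deposited peak lists for 2 biological replicates of 1 group, a ranked and a thresholded list for each replicate and for a larger and a conservative set, 8 lists in all on assembly ce11, per the file headers and read-me texts. Aligner, peak caller and IDR tool were not given in the sources used here, and read depth is unknown. The signal column is the deposited score of the authors' peak caller, with no scale shared between lists. A further score in the deposited lists is a rescaled negative log2 of the IDR capped at 1000, and the ranked lists hold the deposited −log10 of the global IDR capped at 5. The authors gave the summit as a distance in bp past the start of the peak.

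Genes came from Ensembl release 115, isotypes and sequence from RefSeq WBcel235, and 271 of 273 annotated isotypes matched the anticodon read from the sequence. Summits within 500 bp were counted with Python 3.11.15, pandas 2.3.3 and scipy 1.17.1, and the counting was tested on simulated summits. Introns, exons and flanks were taken from the annotation and genome. Genes named are those listed in the larger set and both replicates, those at the 10 strongest listed peaks, the strongest listed gene of each isotype with 5 or more X genes, the 3 lowest and 3 highest IDR among unlisted candidates (ties ordered by position), up to 5 listed in a replicate only and the first 5 with no candidate, and other names were chosen after their values were seen. Members and lists were chosen with earlier results of these data known. The alternatives were other windows, lists, IDR limits, gene subsets and single replicates.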

Additional observations from a re-analysis of the deposited data

How the results depend on the processing

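The X share of listed genes stayed within its interval for 7 of 11 alternatives and moved under the other 4. Among the 7, adding the left-out peaks could not change it, since 0 of them lay near a tRNA gene. With an IDR of 0.001 or less the shares fell to 10.1% of X genes, 8.04% of autosomal genes, 12.7% of near X candidates, 8.42% of intronic and 10.6% of intergenic X genes, and the median summit position was 18 bp. With each summit given to its nearest gene only, 19.9% of X genes and 20% of intronic X genes were listed. Intronic genes also moved to 20% where the peak had to overlap the gene. Among single-copy genes, 6.98% of autosomal genes and 18.75% of intronic X genes were listed, and the median position was 43 bp. Both replicates listed 3 of these 57 X genes, beside 13 of all 276. With no other tRNA gene within 1000 bp, 20.3% of intronic X genes were listed, and both replicates listed 5 of 141 X genes. In the conservative set the median position was 18 bp. Leaving out a replicate, that is using the other's lists alone, gave 8.33 to 18.1% of X genes, 4.76 to 11.9% of autosomal genes, 8.49 to 19.5% of near X candidates, 5.26 to 16.8% of intronic genes, 10 to 18.3% of intergenic genes and median positions of 18 to 22 bp. Of 72 alternative values 46 were counted as unchanged. Among them are values that the setting could not change. These are all values with the left-out peaks added, and the share of near X candidates and the median position under the nearest-gene setting. Shares had to stay within the interval of the main value. Median positions had to stay within 2.83 bp, the standard deviation of the 2 replicate medians. The count of genes listed in both replicates had to stay within a fixed fold range of the main count. It was not scaled to the number of genes, so a smaller subset can lower it with no lower share. The causes of these shifts were not tested. Peak lists without counts, 2 replicates and small isotypes limit what can be told apart.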
